A study of Mus musculus with 24 samples.

Results

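Fibroblast growth factor (FGF) genes of the mouse limb bud were described by H3K27ac, an acetylated histone residue that marks promoters and enhancers in use. There were 10 genes, of 21887 protein-coding genes in the RefSeq table used: the ligand genes Fgf8, Fgf9, Fgf10 and Fgf18, the receptor genes Fgfr1, Fgfr2 and Fgfr3, and the feedback inhibitor genes Spry2, Spry4 and Dusp6. They were chosen by name, and each was taken with its gene body plus 100 kb on each side. Within these windows lay 128 of the 49367 regions marked by H3K27ac in any list.

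The study mapped histone marks by chromatin immunoprecipitation and sequencing in control limb buds and in Sox9-deficient limb buds, which lack the transcription factor that cartilage formation requires. Peak lists of 4 H3K27ac libraries were used, 1 per group: a control and a Sox9null library of E11.5, and a control and a Sox9cKO library of E12.5, these being days of embryonic development. The tissue is labelled as embryonic limb buds. The sources used here do not give the alleles, the Cre driver, the strain or the number of embryos pooled. There were no replicates, so no difference was tested and every value describes 1 library. For the 2 Sox9-deficient libraries the deposited list names are exchanged relative to the sample titles. Groups follow the titles, so these are called the Sox9null-labelled and the Sox9cKO-labelled list, and comparisons within a stage are given under either assignment.

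FGFs are secreted proteins that bind receptor tyrosine kinases and act largely through the ERK kinase cascade. In the limb bud, FGF8, FGF9 and their relatives are made in the apical ectodermal ridge and keep the mesenchyme beneath it proliferating, while FGF10 is made in the mesenchyme and signals back to the ridge through an isoform of FGFR2. Sprouty proteins and the ERK phosphatase DUSP6 are induced by the pathway and dampen it, and FGF18 and FGFR3 later regulate the growth of cartilage.

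The lists held 36045 peaks in the E11.5 control, 32821 in the E12.5 control, 28419 in the Sox9null-labelled list and 36937 in the Sox9cKO-labelled list. Their summed length was 52.0, 66.7, 59.7 and 60.4 Mb in the same order, which is kept for all values below that name no list. Between the controls this total was 1.28-fold higher at E12.5, a shift of 0.36 on the log2 scale. Depth in reads is unknown, and the length covered by peaks moves with it. Tbx5, the forelimb regulator, had 31.7, 3.76, 0 and 32.6 kb of H3K27ac within its gene body plus 20 kb on each side, high in the E11.5 control and the Sox9cKO-labelled list, whereas the hindlimb genes Tbx4 and Pitx1 together had 45.7, 52.7, 55.98 and 49.4 kb. Of all regions, 3186 were marked in the E11.5 control and the Sox9cKO-labelled list alone, and 1819 in the E12.5 control and the Sox9null-labelled list alone. Paired by title, 312 were marked in both E11.5 lists alone and 972 in both E12.5 lists alone. Tbx5 and these shared regions thus paired the lists by the deposited names and not by the titles. Whether exchanged labels or limb type lie behind this was not tested. All of 8 limb mesenchyme markers were marked in every list. Sox9 itself had 7.80, 8.77, 7.76 and 6.90 kb, which does not check the labels, since peaks at a deleted gene depend on which bases were deleted. The part of limb type and of depth in the values below was not tested.

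The start regions of the genes on which the description turns are shown first, as the 250 bases before the RefSeq start site, 5′ to 3′ on the strand of the gene, from RefSeq on GRCm38.p6. They carry the contrasts described below: Dusp6 and Spry2 lay in the widest peaks, Fgf10 had a marked start in every list, and the marking around Fgf18 and Fgfr2 differed between lists. Capitals mark 2 of the motifs searched, the GC box GGGCGG and the SOX motif ACAAAG, or their reverse complements CCGCCC and CTTTGT.
Dusp6, chr10:99262981-99263230, plus strand: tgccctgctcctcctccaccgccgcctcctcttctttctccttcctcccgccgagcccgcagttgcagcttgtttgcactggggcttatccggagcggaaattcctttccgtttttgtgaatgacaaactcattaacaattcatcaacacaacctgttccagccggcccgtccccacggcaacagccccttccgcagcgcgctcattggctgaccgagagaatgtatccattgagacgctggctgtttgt
Spry2, chr14:105896820-105897069, minus strand: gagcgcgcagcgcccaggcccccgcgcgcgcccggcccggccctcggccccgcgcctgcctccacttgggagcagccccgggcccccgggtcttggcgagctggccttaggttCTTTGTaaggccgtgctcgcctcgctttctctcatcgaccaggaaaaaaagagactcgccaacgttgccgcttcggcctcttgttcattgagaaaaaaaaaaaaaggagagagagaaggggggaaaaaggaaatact
Fgf10, chr13:118714449-118714698, plus strand: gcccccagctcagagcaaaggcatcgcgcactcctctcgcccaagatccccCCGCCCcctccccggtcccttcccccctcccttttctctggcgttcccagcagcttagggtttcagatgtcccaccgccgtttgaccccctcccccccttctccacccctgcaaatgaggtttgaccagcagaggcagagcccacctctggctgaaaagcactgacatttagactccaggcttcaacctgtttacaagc
Fgf18, chr11:33147401-33147650, minus strand: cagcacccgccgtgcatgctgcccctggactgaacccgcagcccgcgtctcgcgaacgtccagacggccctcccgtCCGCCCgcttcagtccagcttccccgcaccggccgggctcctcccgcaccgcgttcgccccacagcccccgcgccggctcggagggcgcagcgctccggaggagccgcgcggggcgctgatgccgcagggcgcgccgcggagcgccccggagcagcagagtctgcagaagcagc
Fgfr2, chr7:130266809-130267058, minus strand: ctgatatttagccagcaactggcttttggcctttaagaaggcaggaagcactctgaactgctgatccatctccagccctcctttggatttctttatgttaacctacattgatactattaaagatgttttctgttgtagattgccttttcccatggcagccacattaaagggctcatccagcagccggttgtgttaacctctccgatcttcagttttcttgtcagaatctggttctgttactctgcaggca
Of 10 genes, 7 had an entry in the promoter table, and Fgf8, Fgfr1 and Spry4 had none. For Dusp6, Spry2, Fgf10 and Fgf18, peaks covered 100% of these 250 bases in all 4 lists. Over the start of Fgfr2 they covered 0% in the E11.5 control, 100% in the E12.5 control, 100% in the Sox9null-labelled list and 43.2% in the Sox9cKO-labelled list. GC content was 56.4% for Dusp6, 62.4% for Spry2, 61.2% for Fgf10, 77.2% for Fgf18 and 44.0% for Fgfr2, with a median of 52.4% over 32851 RefSeq promoters. The number of CpG dinucleotides was 2 at Fgfr2, 8 at Fgf10, 16 at Dusp6, 23 at Spry2 and 37 at Fgf18. The 250 bases before the RefSeq start site of Fgf9, not shown, had 11 and were also unequally marked, with 0, 0, 0 and 62.8% covered. That site lies inside the annotated gene, whose left end was under a peak in all 4 lists.

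Motifs were searched on both strands in the same 250 bases. GGGCGG was found once before Fgf10 and once before Fgf18, and 32.7% of all promoters held it. The SOX motif ACAAAG was found once, before Spry2 at position -137 counted back from the start site, and 16.5% of all promoters held it. No match to the other SOX motif ACAATG (10.7% of promoters), the ETS motif CCGGAAG (6.91%) or TATAAA (12.4%) was found in the sequences shown.

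Of the 10 genes, Dusp6 and Spry2 had the widest H3K27ac peaks at their starts in every list, except that in the E12.5 control the start peak of Fgfr2 was slightly wider than that of Spry2. Dusp6 (chr10:99263231-99267489, 4259 bp) encodes a phosphatase that inactivates ERK. A single peak covered the whole gene and ran past both its ends in every list, with a width of 10.91, 11.6, 10.5 and 10.7 kb. Only 30, 86, 106 and 60 peaks were wider anywhere in the same lists. These widths stayed within a narrow range across stage and genotype. The score, the authors' own value for each peak, stood at 3100 for this peak in all 4 lists, a value shared by 1588, 1325, 702 and 2772 peaks, so that it cannot order them further.

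Around Dusp6 the flanks differed more than the gene. The whole window was covered over 23.6, 27.2, 22.6 and 31.3 kb. Of 15 regions in it, 6 were marked in all 4 lists, among them one 57.9 kb to the left of the gene (1860, 2124, 1968 and 1706 bp) and one 30.4 kb to the right (2378, 2712, 2550 and 2606 bp). The Sox9cKO-labelled list held 13 of the 15 regions and the Sox9null-labelled list 7. In the Sox9cKO-labelled list alone there were 5 regions of the Dusp6 window, the best scored of them at chr10:99330337-99331477 with a score of 171, against a list median of 196.

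Spry2 (chr14:105891947-105896819), which encodes a Sprouty inhibitor of receptor signalling, had a start peak of 6.94, 7.33, 6.84 and 7.21 kb in width. Between 98.7 and 99.6% of peaks in the respective lists were narrower, and its score was again 3100 in all 4 lists. Window coverage was 12.3, 15.9, 13.7 and 14.6 kb, so about as much of each list's H3K27ac at Spry2 lay in this peak as in the rest of the window. A peak 23.1 kb to the right of the gene was also present in each list (1821, 1742, 1881 and 1900 bp). A small one at the left end of the gene was found in the E12.5 control (1077 bp) and the Sox9cKO-labelled list (595 bp).

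Spry4 (chr18:38586247-38601347), a second Sprouty gene, had a broad peak over its right end, where the neighbouring gene Arhgap26 also has its end, so that this peak cannot be assigned to one of them. Its width was 4.27, 4.02, 4.74 and 5.22 kb. The Spry4 window was covered over 24.1, 18.9, 22.3 and 34.01 kb, lowest in the E12.5 control and highest in the Sox9cKO-labelled list. Of 21 regions, the E11.5 control held 17 and the Sox9cKO-labelled list 18, against 8 in the E12.5 control and 10 in the Sox9null-labelled list. The 5 in the E11.5 control and the Sox9cKO-labelled list alone were one inside the gene (chr18:38591403-38593176, 1005 and 1774 bp) and others 11.3, 15.1, 61.3 and 72.8 kb to its left. Without peaks at the ends of other genes the values were 19.9, 14.9, 17.5 and 28.8 kb, in the same order. Sums over markers of blood and macrophages (6 genes, 18.7, 10.1, 11.9 and 23.3 kb) and of muscle (5 genes, 6.16, 3.48, 2.48 and 10.5 kb) were also highest in these lists. Tal1 (6.34, 0, 0 and 5.54 kb), Epor, Csf1r, Spi1, Pax3 and Myf5 shared this order. Gata1 (1.82, 1.01, 2.06 and 2.15 kb) and Klf1 were higher in the Sox9null-labelled list than in the E11.5 control. Myog was highest in the E12.5 control (3.48 kb), Pax7 was marked in the Sox9cKO-labelled list alone, and Myod1 in none. By these lists the E11.5 control and the Sox9cKO-labelled list are meant. The part of these markers in the Spry4 values was not tested.

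**Figure D1:**
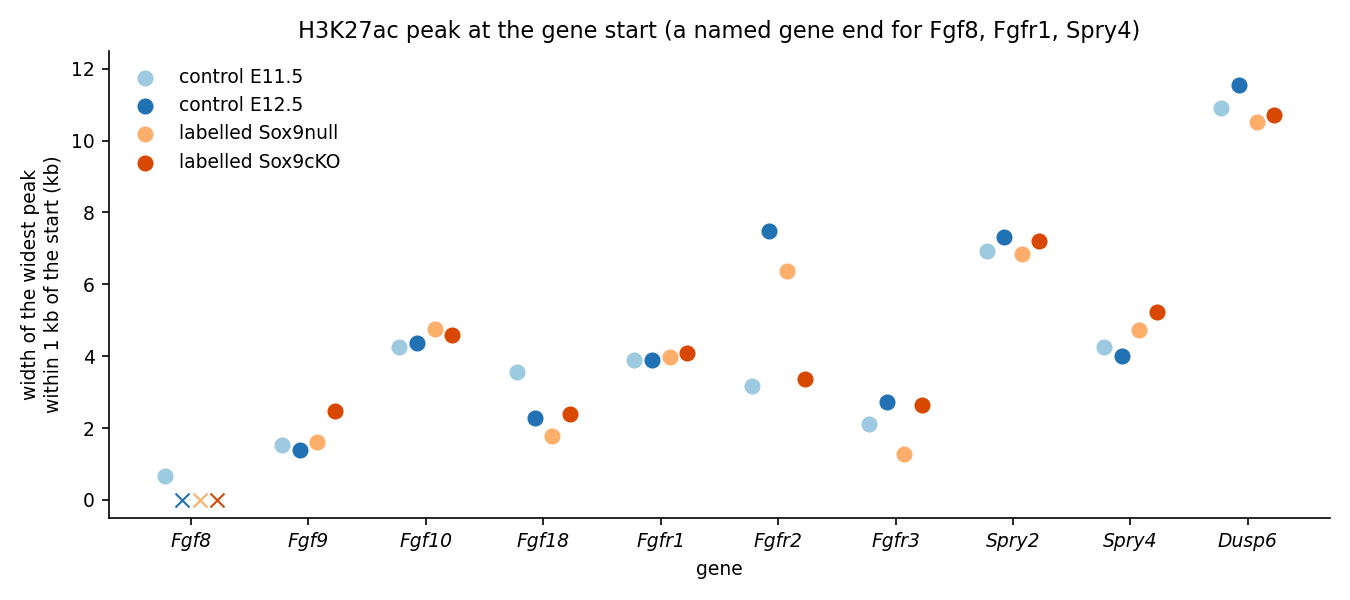
Width in kb of the widest H3K27ac peak within 1 kb of the start of each gene, 1 point per library; crosses at 0 mark lists without a peak. For Fgf8 and Spry4 the right gene end and for Fgfr1 the left gene end are shown, and Dusp6 (10.5 to 11.6 kb) and Spry2 (6.84 to 7.33 kb) stand above the other genes except Fgfr2, which lies between 3.16 and 7.47 kb.

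Peaks of 5 kb or wider made up 1.04% of the E11.5 control list, 3.29% of the E12.5 control list, 3.27% of the Sox9null-labelled list and 1.60% of the Sox9cKO-labelled list. In the windows of the 10 genes there were 2 such peaks of 99 in the E11.5 control, 4 of 91 in the E12.5 control, 6 of 77 in the Sox9null-labelled list and 3 of 114 in the Sox9cKO-labelled list. Dusp6 and Spry2 supplied the 2 peaks of the E11.5 control and were among the wide ones in every list.

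Among the receptor genes, Fgfr1 had much the same coverage in all lists and Fgfr2 differed most of all 10 genes. Fgfr1 (chr8:25518759-25575718) encodes the main receptor of limb mesenchyme. Its window was covered over 25.8, 26.8, 27.6 and 24.3 kb, the highest value being 1.13-fold the lowest after 1 kb was added to each. Within the gene, 3 regions were marked in all 4 lists. The one over its left end was 3.89, 3.89, 3.96 and 4.09 kb wide, and those at chr8:25534254-25538993 and chr8:25541737-25546802 held peaks up to 4.28 and 5.07 kb wide. Of 11 regions in the window, 8 were marked in all 4 lists, and an intergenic one 51.8 kb to the left carried 2.99, 4.93, 5.14 and 3.28 kb.

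Fgfr2 (chr7:130162451-130266808, 104358 bp) encodes the receptor whose isoforms receive FGF10 in ectoderm and other FGFs in mesenchyme. Its window was covered over 17.0, 45.7, 28.2 and 19.7 kb. The E12.5 control stood apart from the other lists, and the highest value was 2.60-fold the lowest. Within the gene body alone the values were 9.29, 22.1, 11.9 and 5.76 kb. In the 100 kb to the right of the gene, beyond its start, they were 6.34, 16.5, 12.9 and 10.2 kb. On the left they were 1.37, 7.02, 3.42 and 3.69 kb, so that the E12.5 control was highest in every part of the locus. The sum over the cartilage markers (6 genes) was also highest in the E12.5 control, at 75.6, 122.2, 79.0 and 63.6 kb. Most of it lay at Sox5 (28.0, 41.5, 26.8 and 20.3 kb) and Sox6 (25.6, 52.4, 32.6 and 21.8 kb). Col2a1 differed little (11.6, 13.1, 11.8 and 11.8 kb), and Acan went the other way (0.567, 0, 0 and 1.11 kb). The part of the cartilage markers in the Fgfr2 values was not tested.

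At the start of Fgfr2, shown above, the E12.5 control had 1 peak of 7470 bp (chr7:130259874-130267343) with a score of 3153.34. In this list 1325 peaks shared the score 3100 and 112 scored above it. Whether peaks above 3100 are stronger than those at 3100 is unknown, so no rank is given for this peak. The Sox9null-labelled list had a peak of 6377 bp there that ranked 2640th. In the E11.5 control the widest peak was 3158 bp long and ended at 130266611, before the start site, and in the Sox9cKO-labelled list it was 3356 bp long and ended at 130266916, past it. The region was thus marked in every list, with its right border and its length differing between them.

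**Figure D2:**
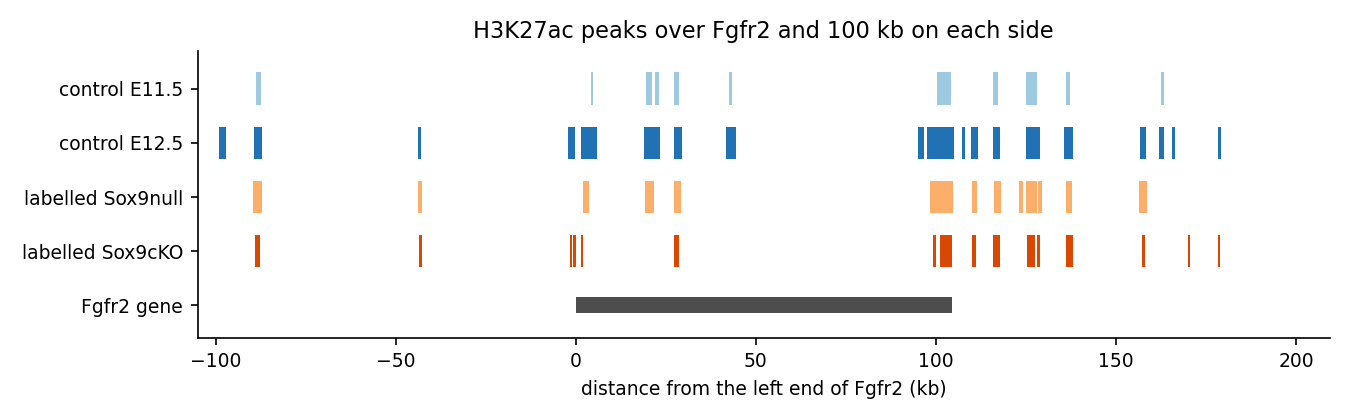
H3K27ac peaks of the 4 lists over Fgfr2 and 100 kb on each side, with the distance from the left end of the gene in kb on the x axis; the gene starts at its right end. The E12.5 control marks 19 of the 21 regions, against 10 in the E11.5 control, 12 in the Sox9null-labelled list and 13 in the Sox9cKO-labelled list.

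Inside Fgfr2 several regions were unequal. The one at chr7:130163743-130168297, near the end of the gene, carried 589, 4414, 1626 and 628 bp. The one at chr7:130181424-130185712 carried 2580, 4289, 2413 and 0 bp, and that at chr7:130204216-130206928 carried 1018, 2713, 0 and 0 bp. The last of these and a region 57.6 kb to the right of the gene (827, 1506, 0 and 0 bp) were the only regions of the 10 windows marked in both controls and in neither Sox9-deficient list. Their scores were 95.03 and 55.6 in the E11.5 control and 225 and 108 in the E12.5 control, all below the medians of these lists (162.09 and 240.03). Regions of the E12.5 control alone numbered 4 at Fgfr2, with a highest score of 200, also below the median of that list.

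For Fgfr3 (chr5:33721724-33737068), the receptor that restrains cartilage growth, all 9 regions of the window were marked in all 4 lists. The window was covered over 21.9, 26.5, 25.04 and 24.2 kb. Much of this lay at the ends of the neighbouring genes Fam53a, Slbp, Tmem129, Tacc3, Letm1 and Nsd2, and without such peaks the values were 8.18, 13.1, 12.4 and 10.4 kb, the E12.5 control then being 1.54-fold the E11.5 control, against 1.20-fold with them. An intergenic region 22.9 kb to the left of Fgfr3 (chr5:33691242-33698786) carried 3.74, 7.33, 7.06 and 4.64 kb and was a single peak in the E12.5 control and the Sox9null-labelled list. The region over the start itself carried 2124, 2717, 2166 and 2644 bp. It was split into 2 peaks (1265 and 901 bp) in the Sox9null-labelled list and was 1 peak in each other list.

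When the lists were grouped by stage according to the deposited names, all 3 receptor genes had more H3K27ac in each of the E12.5 control and the Sox9null-labelled list than in each of the other 2 lists. Spry4 had less in each. So 4 of the 10 genes were separated in this way, in either direction, against 49.9% of all genes. Grouped by the titles, 4 of the 10 genes (Fgf9, Fgf18, Spry2 and Dusp6) had more in each E12.5 list than in each E11.5 list, against 25.9% of all genes, and 0 of 10 had less, against 2.06%.

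Among the ligand genes, Fgf10 was marked in all lists at nearly the same places, whereas the gene body of Fgf8 was almost free of peaks. Fgf8 (chr19:45736491-45742941, 6451 bp) encodes the main FGF of the apical ectodermal ridge, a thin rim of cells. The gene body had 0.492 kb under a peak at E11.5 in the control and 0 kb in the other 3 lists. That peak, 661 bp long over the right end of the gene, scored 69.8 and ranked 27575th of 36045. In bulk limb buds, few marked cells and little mark per cell cannot be told apart.

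Peaks in the Fgf8 window lay mainly at other genes. The window was covered over 10.4, 9.92, 10.7 and 15.9 kb, and without peaks at the ends of Fbxw4, Npm3 and Oga over 4.20, 3.94, 4.27 and 9.16 kb. Inside Fbxw4, which is known to hold limb enhancers of Fgf8, a region 83.0 kb from Fgf8 was marked in all 4 lists (585, 1967, 1640 and 928 bp). Another, 79.8 kb away, was marked in both Sox9-deficient lists and neither control (1205 and 938 bp). Intergenic regions 44.8 and 59.6 kb to the left of Fgf8 were marked in the E11.5 control (756 and 825 bp) and the Sox9cKO-labelled list (1434 and 1156 bp) alone. The Sox9cKO-labelled list held 12 of the 14 regions, the E11.5 control 9 and the other lists 6 each.

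Of 14 markers of ectoderm and the apical ridge, 12, 12, 10 and 12 had a peak, and their summed coverage was 45.1, 52.7, 41.5 and 52.8 kb. Krt14 had 0 kb in all 4 lists, Krt5 had none in either Sox9-deficient list, Wnt7a had a peak in the Sox9cKO-labelled list alone, and En1 had none in the Sox9null-labelled list. The markers did not share one order. The ridge transcription factor gene Sp8 had 3.93, 1.11, 0.701 and 5.57 kb, and Sp6 and Epcam were likewise higher in the E11.5 control and the Sox9cKO-labelled list. Trp63 (3.21, 5.92, 2.12 and 4.78 kb), Krt5, Krt8, Krt18, Dlx5 and Dlx6 were highest in the E12.5 control. Dlx5 and Dlx6 had the same values, and both are counted in the sums. The part of ectoderm content in the Fgf8 and Fgf9 values was not tested.

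Fgf9 (chr14:58070671-58112854), a further ligand of the ridge, had the lowest window coverage of the set, at 6.45, 7.61, 7.31 and 9.68 kb. A region over its left end was marked in all lists (1516, 1385, 1597 and 2463 bp). It ended short of the RefSeq start site used here, which lies inside the gene. A second region just inside the gene (chr14:58074459-58077132) carried 2046, 1070, 0 and 2617 bp, absent from the Sox9null-labelled list alone. To the right of the gene, a region marked in both Sox9-deficient lists and neither control scored 50.6 and 53.7, close to the lowest scores of these lists (50.01 and 50.02).

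Fgf10 (chr13:118714699-118792573), the mesenchymal ligand that starts limb outgrowth, had a window coverage of 12.3, 13.8, 14.4 and 13.8 kb. Of 8 regions, 6 were marked in all 4 lists. The start peak was 4.27, 4.37, 4.74 and 4.59 kb wide, ranked 2848th, 2757th, 2014th and 3333rd by score in its list, and lay among the top 10% by score in each. The end of the gene (2129, 3026, 2735 and 2487 bp) and regions 12.9, 26.3 and 31.6 kb beyond it were marked as well. The 4 values of the window were within 1.16-fold of each other.

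Fgf18 (chr11:33116970-33147400), a ligand of cartilage and bone, was lowest in the Sox9null-labelled list. Its window was covered over 12.8, 13.9, 8.82 and 16.9 kb, the highest value being 1.82-fold the lowest. At the start shown above, the region carried 3570, 2279, 1772 and 3612 bp, although each list covered the start itself. Another region, 2.45 kb to the left of the gene, carried 2671, 1769, 0 and 3353 bp. The region at the neighbouring gene Npm1 was similar in all lists (2501, 2646, 2816 and 2874 bp).

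**Figure D3:**
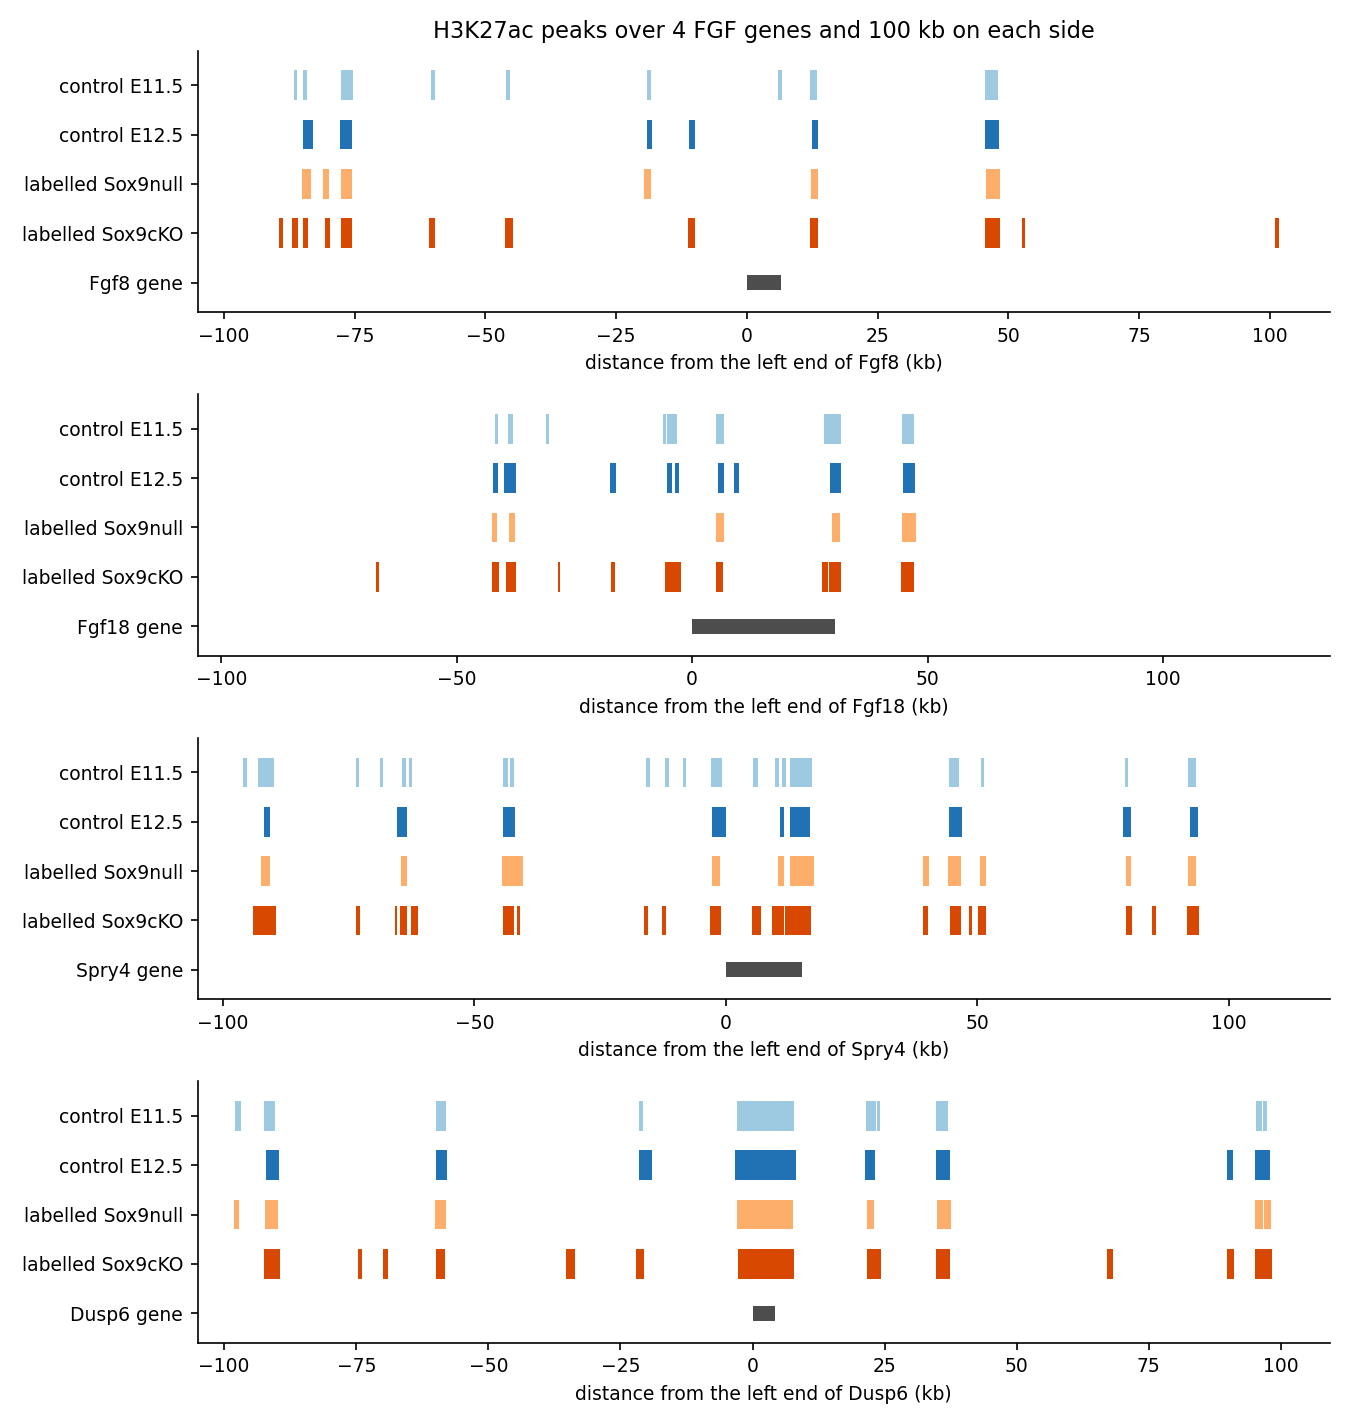
H3K27ac peaks of the 4 lists around Fgf8, Fgf18, Spry4 and Dusp6, with the distance from the left end of each gene in kb on the x axis and the gene as a grey bar. The Fgf8 gene carries a peak in the E11.5 control alone, and the Dusp6 gene lies under a single peak of 10.5 to 11.6 kb in every list.

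A comparison of both Sox9-deficient lists with both controls, which addresses what acetylation goes with Sox9 and does not depend on the assignment of the deficient lists, separated few of the genes. In 2 of 10 genes, Fgf8 and Fgf10, each deficient list covered more than each control, against 14.4% of the 18907 genes with any peak in such a window. For Fgf10 the margin was 3 bp between the E12.5 control (13.823 kb) and the Sox9cKO-labelled list (13.826 kb). In 0 of 10 genes did each deficient list cover less than each control, against 5.51% of all genes. The median difference between the means was 0.755 kb over the 10 genes and 0.269 kb over all genes. Median coverage itself was 14.9, 17.4, 18.3 and 18.3 kb for the 10 genes, against 8.70, 9.39, 8.82 and 9.81 kb for all. Differences in kb are therefore not on the same footing. Fgfr2 had the largest loss (-7.39 kb) and Spry4 the largest gain (6.61 kb), and in both genes the deficient and control lists overlapped. Counts of genes on one side moved when 1 list was left out, to between 0 and 3 genes with less and between 3 and 6 with more.

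**Figure D4:**
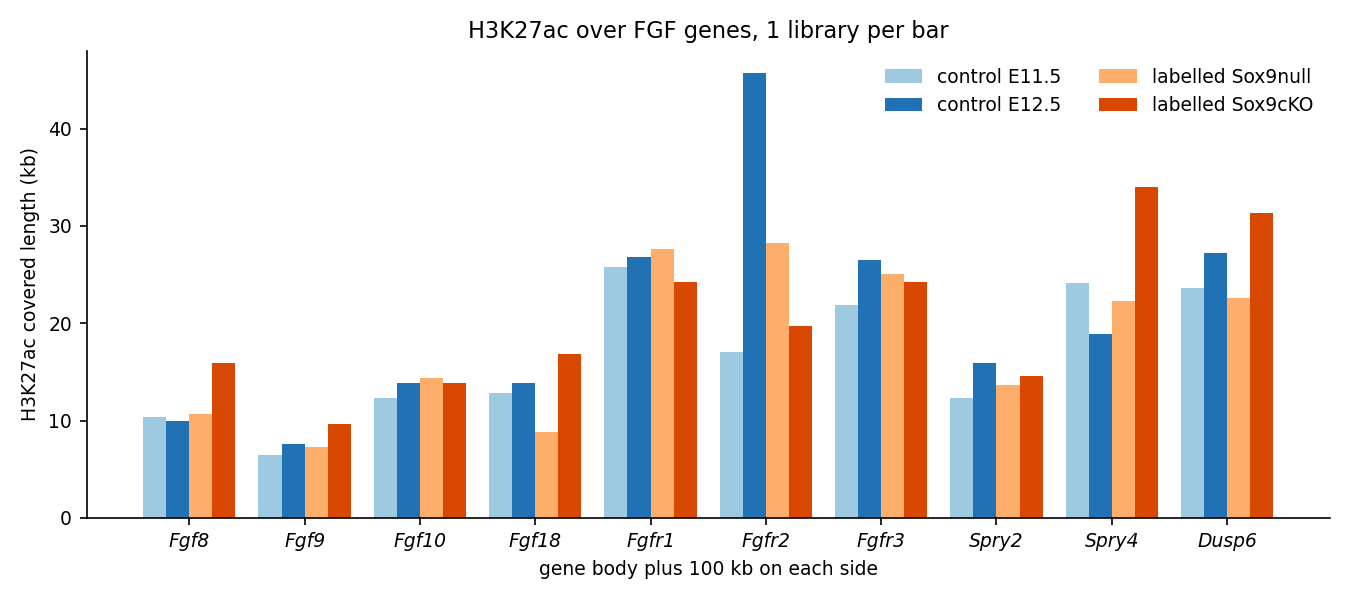
Length covered by H3K27ac peaks in kb over each gene body plus 100 kb on each side, 1 bar per library. Fgfr2 has its highest bar in the E12.5 control (45.7 kb) and Spry4 in the Sox9cKO-labelled list (34.01 kb), while the bars of Fgfr1 lie between 24.3 and 27.6 kb.

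The E12.5 control was set against the E11.5 control because cartilage forms between these stages. The lists also differed in Tbx5 (3.76 against 31.7 kb), and with 1 library each, stage, limb type and library cannot be told apart. At E12.5, 8 of 10 genes were covered by more, against 58.8% of all genes. Fgf8 and Spry4 were covered by less. At least 1.5-fold more, computed as the ratio of covered kb plus 1, was reached by 1 gene, Fgfr2 (2.60-fold), against 9.99% of all genes, and 1.5-fold less by 0 of 10, against 5.36%. The median difference was 1.36 kb for the 10 genes and 0.319 kb for all, on the unlike levels of coverage given above. With covered length divided by list totals, 2 of 10 genes were covered by more, Fgfr2 (2.05-fold) and Spry2 (1.01-fold), and the other 8 by less. Spry4 then stood at 0.625 of the E11.5 control, so that 1 of 10 was past 1.5-fold less. The direction for single genes other than Fgfr2, Fgf8, Spry4 and Spry2 therefore depended on the scaling. Shares of all genes were not computed after scaling, so scaled counts here and below cannot be set against the genome.

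At E11.5 by title, 3 of 10 genes (Fgf18, Spry4 and Dusp6) were covered by less in the Sox9null-labelled list than in the control, against 49.0% of all genes. Fgfr2 was covered 1.62-fold more, the only one of 10 past 1.5-fold, against 5.84% of all genes, and 0 of 10 were 1.5-fold less, against 7.58%. Scaled to list totals, 8 of 10 genes were covered by less at E11.5, with no share of all genes computed. Fgfr2 was then covered 1.43-fold more, below the 1.5-fold limit, and Fgf18 was at 0.625 of the control, so that 0 of 10 were past 1.5-fold more and 1 past 1.5-fold less. With the deposited names, by which the Sox9cKO-labelled list is the E11.5 one, 1 of 10 genes (Fgfr1) was covered by less, against 20.2%, and 0 were past 1.5-fold in either direction, against 5.33% more and 1.31% less. Spry4 was then 1.39-fold and Fgf8 1.48-fold higher than the control.

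At E12.5 by title, 4 of 10 genes (the 3 receptor genes and Spry2) were covered by less in the Sox9cKO-labelled list than in the control, against 36.9% of all genes. Fgfr2 was at 0.443 of the control, 1 of 10 past 1.5-fold less, against 6.42%. Fgf8 (1.55-fold) and Spry4 (1.76-fold) were 2 of 10 past 1.5-fold more, against 9.54%. After scaling, Fgfr2 alone of the 10 was covered by less (0.488 of the control), again with no share of all genes computed. With the deposited names, by which the Sox9null-labelled list is the E12.5 one, 6 of 10 genes were covered by less, against 62.4% of all genes. Fgfr2 (0.626 of the control) and Fgf18 (0.660) were then past 1.5-fold less, 2 of 10 against 5.70%, and 0 of 10 were 1.5-fold more, against 1.18%. Fgfr2 was thus below the E12.5 control in each deficient list. Against the E11.5 control (17.0 kb) the Sox9null-labelled list was higher, whereas the Sox9cKO-labelled list was higher over the whole window (19.7 kb), lower within the gene body (5.76 against 9.29 kb) and level with it after scaling (19.47 against 19.50 kb).

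Of the 128 regions of the 10 windows, 60 (46.9%) were marked in all 4 lists, against 40.1% of all 49367 regions. All 12 regions at the end of another gene were marked in all 4, as were 17 of 28 over the gene bodies of the 10 genes, 6 of 20 inside other genes and 25 of 68 between genes. Shares of all regions by place are not given here, so these counts cannot be set against the genome. A peak within 1 kb of a RefSeq start was present in all 4 lists for 7 of 7 genes with such a start, against 40.1% of 27025 genes. These 27025 genes outnumber the 21887 protein-coding genes, so they are not limited to protein-coding genes, whereas all 7 are protein-coding. The share among protein-coding genes alone was not computed, so these shares are not on the same footing.

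In the Sox9cKO-labelled list alone there were 17 of the 128 regions (13.3%, against 12.1% of all regions), in the E12.5 control alone 10 (7.81%, against 8.71%), in the E11.5 control alone 7 (5.47%, against 10.6%) and in the Sox9null-labelled list alone 2 (1.56%, against 3.26%). None of these 36 regions scored above the median of its list. The E11.5 control and the Sox9cKO-labelled list alone shared 10 (7.81%, against 6.45%), 5 of them at Spry4, and the E12.5 control and the Sox9null-labelled list alone shared 1 (0.781%, against 3.68%). By title, both E12.5 lists alone shared 6 (4.69%, against 1.97%) and both E11.5 lists alone 1 (0.781%, against 0.632%).

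Both controls and neither deficient list shared 2 regions (1.56%, against 1.64%), both at Fgfr2. Both deficient lists and neither control shared 3 (2.34%, against 1.15%), at Fgf8, Fgf9 and Spry4, the last a region inside Arhgap26 24.1 kb from Spry4 with 1297 and 1086 bp. The E11.5 control marked 86 of the 128 regions (against 66.2% of all regions), the E12.5 control 87 (against 64.1%), the Sox9null-labelled list 73 (against 55.1%) and the Sox9cKO-labelled list 103 (against 69.9%).

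**Figure D5:**
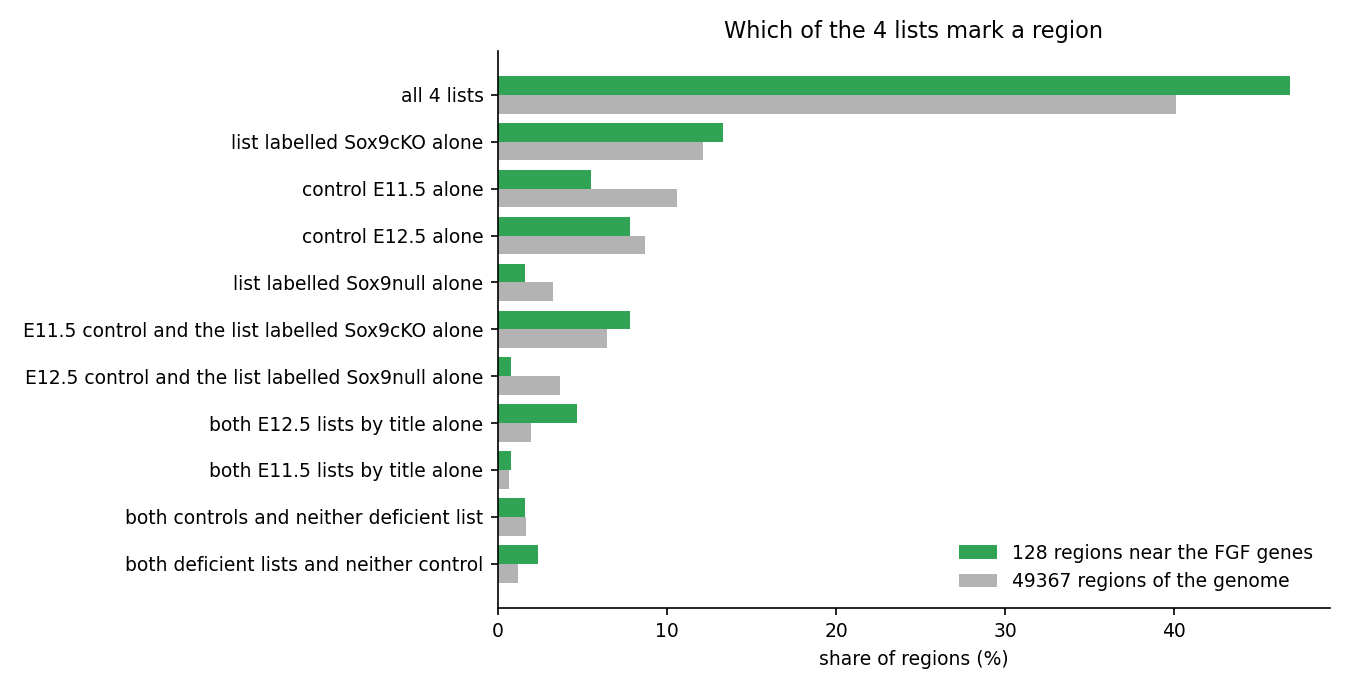
Share in % of H3K27ac regions by the lists that mark them, for the 128 regions in the windows of the 10 FGF genes (green) and all 49367 regions (grey); regions marked in 3 lists are left out. Regions in all 4 lists make up 46.9 and 40.1%, and those in both controls and neither deficient list 1.56 and 1.64%.

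The share of the window under peaks, which allows genes of different length to be compared, ranged over the 10 genes from 2.66 to 11.6% in the E11.5 control, 3.14 to 15.02% in the E12.5 control, 3.02 to 11.6% in the Sox9null-labelled list and 3.997 to 15.8% in the Sox9cKO-labelled list. Its median over the 10 genes was 5.79, 8.28, 7.98 and 7.52%, and over all genes 3.60, 3.91, 3.66 and 4.07%. Fgf9 had the lowest share in every list.

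Other genes of the FGF pathway were taken from a list of 40 further ligands, receptors, adaptors, ETS targets and inhibitors, of which 38 had any peak in the same windows. Fgf16 and Spry3 had none. In 3 of the 40 each deficient list covered less than each control: Fgfrl1, a decoy-like receptor (12.9, 16.8, 11.2 and 10.1 kb), Fgf7, a mesenchymal ligand (4.71, 6.67, 3.74 and 4.31 kb), and Fgf12, an intracellular FGF homologue (1.64, 3.23, 0 and 1 kb). In 3 each covered more: Fgf11 (23.9, 26.2, 27.6 and 27.03 kb), Fgfr4 (11.8, 11.7, 12.9 and 13.1 kb) and the ERK phosphatase gene Dusp4 (6.60, 6.79, 7.10 and 7.44 kb). In the other 32 of the 38 the lists overlapped, and these counts can be read against the 5.51% and 14.4% of all genes given above. Between controls, 25 of the 38 were covered by more at E12.5 and 12 by less, with a median of 1.21 kb, against 58.8% covered by more and a median of 0.319 kb over all genes. These medians are not scaled to the level of coverage, which is not summarised for the 38 here. Of the 38, 6 were at least 1.5-fold more, against 9.99% of all genes, and 1 was at least 1.5-fold less, against 5.36%.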

How the data were processed

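H3K27ac was measured in 4 limb bud libraries of 24 samples in the series, and 20 libraries were not analysed here. Per the file contents the authors deposited 1 peak list per library, with position, name and a score per peak, 1 list for each sample and none pooled. No header says what the deposited score is, and it served here for ranks and filters inside 1 list alone. The peak names name MACS, and the build mm10, CASAVA 1.8 and deepTools come from the submitters' processing notes. The sources used here do not give caller settings, aligner or use of input. Per the labels, chromatin of sonicated nuclei was immunoprecipitated with H3K27ac antibody.

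Covered length was the union of peaks clipped to each gene extended by 100 kb to either side, with genes from RefSeq on GRCm38.p6, the assembly behind mm10. Regions were the union of the 4 lists merged at an overlap of 1 bp. Folds are ratios of covered kb plus 1, called at 1.5. Markers used 20 kb on each side. With 1 library per group there is no test, and the spread between embryos is unknown. All 10 genes are named, with the peaks at the start, the best scored and widest peaks, and regions of both controls or both deficient lists alone. The best scored regions of 1 list alone were chosen after their values were seen, since none passed the list median. The genes and lists were chosen with earlier results of these data known. Alternatives were other windows, stricter lists, scaling to list totals, exchanged deficient lists, other region rules, and leaving out 1 list in turn. The functions were tested on simulated data. The scripts ran in Python 3.11.15 with pandas 2.3.3, numpy 2.4.6 and, for plots, matplotlib 3.10.9.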

Additional observations from a re-analysis of the deposited data

Results flagged for a closer look

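For 7 of the 10 genes the difference between the Sox9-deficient list and its control, in kb covered over each gene extended by 100 kb to either side, had opposite signs at E11.5 and E12.5 by title, as for 65.1% of all 18907 genes with a peak in such a window. Each stage had 1 library a group, and the difference between stages was not tested. The values at E11.5 and E12.5 were -3.99 and 3.01 kb for Fgf18, 1.88 and -2.51 kb for Fgfr1, 11.2 and -26.02 kb for Fgfr2, and 3.19 and -2.26 kb for Fgfr3. They were 1.41 and -1.32 kb for Spry2, -1.87 and 15.1 kb for Spry4, and -0.983 and 4.11 kb for Dusp6. With the deposited names in place of the titles the signs were also opposite for 7 of the 10 genes, and for 55.7% of all genes.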

How the results depend on the processing

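Of 360 values of single genes under the alternatives, 333 kept their side of 1.5-fold, 7 fell below 1.5-fold, 15 passed it and 4 passed it in the other direction. These 4 were, on the log2 scale, Fgf9 at E11.5 with 20 kb on each side (-0.81), Fgf9 between controls (-1.40) and at E11.5 (-0.68) with the better scored 50% of peaks, and Fgf18 at E12.5 with the deposited names (-0.60). The sign changed in 72 of the 360, of which 67 stayed within 1.5-fold of no difference, and in 15 with scaling to list totals and 12 with 20 kb on each side. The higher coverage of Fgf8 at E12.5 turned to -0.0513 on the log2 scale with 20 kb on each side. Counts are of 10 genes or of 128 regions, and are small, so that a change of 1 can exceed 1.5 times. With 20 kb on each side, genes with less in each deficient list numbered 1 and with more 0, those with less in the deficient list 5 at E11.5 and 7 at E12.5, and regions of both controls alone 1 and of both deficient lists alone 0. With 50 kb, 5 genes had less at E11.5 and 1 region was of both controls alone. With 250 kb, 1 gene had more in each deficient list and 4 regions were of both controls alone. With the better scored 50% of peaks, 4 genes had more in the E12.5 control, 1 region was of both controls alone and 0 of both deficient lists alone. With the same number of top peaks, and with regions counted as marked from 50% coverage, 1 region was of both controls alone. Scaled to list totals, 0 genes had more in each deficient list, 2 had more in the E12.5 control, 8 had less at E11.5 and 1 had less at E12.5. With the deposited names, 1 gene had less at E11.5. Leaving out 1 list in turn gave 0 to 3 genes with less and 3 to 6 with more in each deficient list, 4 to 12 regions of controls alone and 4 to 21 of deficient lists alone. Regions of controls alone were 12 without the E11.5 control, 11 without the E12.5 control, 4 without the Sox9null-labelled and 5 without the Sox9cKO-labelled list. The count of 21 was without the Sox9null-labelled list. Fewer lists make each condition easier to meet; for the other changes the cause was not tested. No paired analysis was possible because each group has 1 library.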
